A study of Mus musculus with 3 samples.

Results

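The genes described here build and remodel the actin cytoskeleton that dendritic cells use to extend protrusions, take up antigen and crawl. The list holds 57 mouse genes, picked for what they do rather than by a measured threshold. They were matched by gene symbol to probe sets that name a single gene in the platform annotation. Where a gene had several, the one with the highest mean level stood for it. In this way 54 of the 57 were measured, out of 19938 genes in all. Actr2 and Arpc3 were not found in the annotation used here, and Actg1 was named only on probe sets shared with Actb. Diap1 was matched through its current symbol Diaph1.

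The 3 samples are bone marrow-derived dendritic cells (BMDC) of C57BL/6J mice, and all carry the same treatment. Marrow was seeded at 2000000 cells a well and cultured for 9 days with murine GM-CSF and murine IL-4, each at 20 ng/ml. Total RNA, 150 ng a sample, was hybridised to 1 Affymetrix array each. The labels name no second group, so nothing is compared between conditions. Nor do they tell whether separate mice or cultures were used, so the spread between arrays may be technical. Cultures of this kind are mixed, and in bulk RNA fewer cells of a type and less RNA per cell cannot be told apart.

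Actin monomers assemble into filaments that push the membrane forward. The Arp2/3 complex starts new filaments as branches on old ones once WASP and WAVE proteins switch it on, and formins and Ena/VASP proteins lengthen unbranched filaments. Small GTPases such as Rac and Cdc42 decide where this happens, cofilin and gelsolin cut filaments, fascin and plastin bundle them, and myosins pull on them. In dendritic cells fascin is known as a marker of the mature, migrating state.

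Values are log2 expression. Genes for olfactory and vomeronasal receptors, 1210 probe sets, served as the measure of background. A gene counted as above background where it exceeded their 95th percentile in every array, which was 5.54, 5.54 and 5.55 in replicates 1, 2 and 3. This is a rough sign of detection. By this limit 52 of 54 members (96.3%) were above background, against 60.5% of all genes. Of 27 cytoskeletal and structural genes of muscle, hair cells, epithelium and nerve, such as Acta1, Myh7 and Gfap, 6 (22.2%) passed the same limit. A probe set's brightness depends on its probes, so levels of different genes are not ranked against each other. The cells' label was checked on 10 marker genes of BMDC, of which 9 were above background in all 3 arrays, Itgax, H2-Aa and Cd74 among them. Flt3, at 5.47, 5.47 and 5.24, was not. All 8 measured macrophage markers were above background as well, so this check does not set BMDC apart from macrophages.

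**Figure D1:**
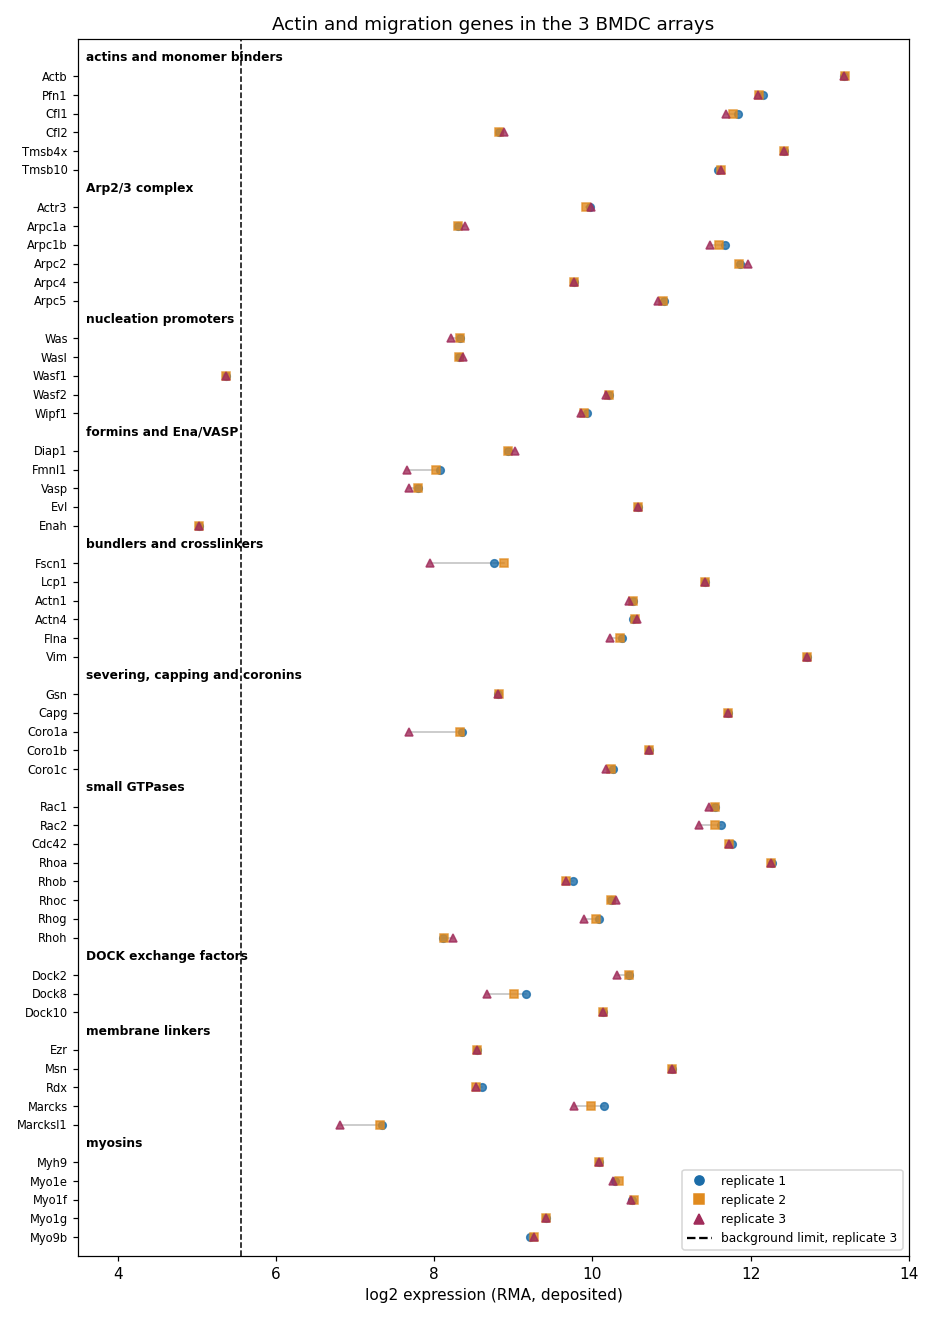
Log2 expression of the 54 measured members (horizontal axis) in replicates 1, 2 and 3 (circles, squares and triangles), grouped by role, with the background limit of replicate 3 dashed. Symbols overlap for most genes; Wasf1 and Enah lie left of the limit, and Fscn1, Coro1a and Marcksl1 spread the widest.

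Actin and its monomer binders were above background in 6 of 6 measured cases and hardly differed between arrays. Actb, cytoplasmic beta-actin, had 13.18, 13.19 and 13.18 in replicates 1, 2 and 3. Pfn1, profilin, which feeds monomers to growing filament ends, had 12.15, 12.10 and 12.10. These values lay within 0.06 log2 units of each other for each gene. The thymosin gene Tmsb4x, whose product holds monomers in reserve, had 12.42 in each array, and its relative Tmsb10 had 11.59, 11.62 and 11.62. Cofilin cuts filaments and frees their monomers: its non-muscle gene Cfl1 spanned 0.14 units and its muscle-type gene Cfl2 0.07, in opposite directions in replicate 3. The 4 probe sets shared by Actg1 and Actb spanned at most 0.02 units, and they do not tell the genes apart. The places the probes match were not used here, so signal from near-identical copies of such genes, pseudogenes included, may enter these values.

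The Arp2/3 complex was above background in all 6 subunits measured. Actr3, a subunit that mimics an actin monomer, had 9.96, 9.92 and 9.99. Arpc1a, which with Arpc1b encodes the alternative forms of the ARPC1 subunit, had 8.30, 8.30 and 8.38, highest in replicate 3. Arpc1b had 11.68, 11.60 and 11.49, lowest there. The alternative subunits thus went opposite ways in replicate 3, by 0.08 and 0.19 log2 units from replicate 1, and this difference was not tested. A second probe set of Arpc1b, at 11.40, 11.40 and 11.32, was also lowest in replicate 3. Arpc2, in the core of the complex, was highest in replicate 3 (11.87, 11.85 and 11.97), and Arpc4 had 9.77 in each array.

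Of the nucleation promoters, 4 of 5 were above background, and the exception was a single WAVE gene. Was, the blood cell WASP gene, had 8.33, 8.33 and 8.21, and Wasl, the widely expressed N-WASP gene, had 8.32, 8.31 and 8.36. Wasf1 encodes WAVE1, best known from brain, and had 5.37 in each array, below the limit. Wasf2, which encodes WAVE2, had 10.21, 10.21 and 10.18. The remaining WAVE gene, Wasf3, which is not on the list, also lay below it at 5.13, 5.13 and 5.15. Of the WAVE genes only Wasf2 was therefore above background. Wipf1, the partner that stabilises WASP, had 9.93, 9.89 and 9.85.

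Among the genes that lengthen straight filaments, 4 of 5 were above background, and here the exception was a member of the Ena/VASP family. Enah (Mena) had 5.03 in each array. Its relatives Vasp, at 7.80, 7.80 and 7.68, and Evl, at 10.57 in each array, were above the limit. The formin gene Diap1 had 8.94, 8.94 and 9.02. Fmnl1, a formin of blood cells, had 8.07, 8.02 and 7.66, so that replicate 3 lay apart from the others by more than 0.3 units.

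The small GTPase genes on the list were each above background. Rac1, which drives broad lamellipodia, had 11.55, 11.55 and 11.47. Rac2, the Rac of blood cells, had 11.63, 11.55 and 11.34. Replicate 3 was lowest for both, by 0.08 and 0.28 log2 units from replicate 1. Cdc42, needed for polarity and filopodia, and Rhoa, which drives contraction, spanned 0.03 and 0.02 units. Rhoh, a GTPase of blood cells that lacks catalytic activity, was highest in replicate 3 (8.11, 8.13 and 8.24), as was Rhoc (10.24, 10.24 and 10.30). Rhog, upstream of Rac, was lowest there (10.09, 10.04 and 9.89). Rhob had 9.76 in replicate 1 and 9.66 in the others. Both probe sets of Rhoa were highest in replicate 1.

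DOCK proteins load Rac and Cdc42 with GTP, and all 3 genes were above background. Dock2, which activates Rac in blood cells, had 10.47, 10.47 and 10.31. Dock8, which activates Cdc42 and is needed for dendritic cells to move through tissue, had 9.16, 9.01 and 8.67, lowest in replicate 3 by 1.40-fold from replicate 1. Dock10 had 10.13 in each array.

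Filament bundlers and crosslinkers were above background in 6 of 6 cases, and the group held the member that differed most between arrays. Fscn1, fascin, had 8.76, 8.88 and 7.95 in replicates 1, 2 and 3. Replicate 3 stood apart, 1.91-fold below replicate 2 and 1.75-fold below replicate 1. Only 74 of the 12068 genes above background had a span of that size or larger. Lcp1, the plastin of blood cells, had 11.42 in each array, and Vim, the intermediate filament protein vimentin, had 12.72 in each. Actn1 (10.51, 10.51 and 10.47) and Actn4 (10.51, 10.54 and 10.57), the alpha-actinins of non-muscle cells, went opposite ways within 0.06 units. Flna, filamin A, had 10.38, 10.35 and 10.22.

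Severing, capping and coronin genes were above background in 5 of 5 cases. Gsn, gelsolin, had 8.81, 8.82 and 8.81, and Capg, which caps filament ends in macrophages and dendritic cells, had 11.71 in each array. Coro1a, the coronin of blood cells, had 8.35, 8.33 and 7.68, with replicate 3 1.60-fold below replicate 1. Its relatives did not show this spread: Coro1b had 10.72 in each array, and Coro1c had 10.26, 10.23 and 10.18.

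Genes that tie actin to the membrane were above background in 5 of 5 cases. The ERM genes, whose proteins link filaments to surface receptors, hardly varied: Ezr had 8.54 and Msn 11.01 in each array, and Rdx had 8.61, 8.53 and 8.53. The MARCKS genes encode substrates of protein kinase C at the membrane, and both were lowest in replicate 3. Marcks had 10.15, 9.98 and 9.77. Marcksl1 had 7.33, 7.31 and 6.80, 1.44-fold lower in replicate 3 than in replicate 1.

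The 5 myosin genes were all above background. Their array averages differed by 0.03 log2 units, as they did for the Arp2/3 complex, and those of actin and its monomer binders by 0.02. Myh9, the heavy chain of non-muscle myosin IIA, had 10.08 in each array on the probe set used. Its second probe set gave 7.02, 7.26 and 6.75, which is above background but spans 0.51 units, so the probe sets of this gene disagree on its spread. Of the single-headed myosins, Myo1e had 10.28, 10.33 and 10.27, Myo1f 10.50, 10.53 and 10.49, and Myo1g 9.41 in each array. Myo9b, a myosin with a GAP domain, had 9.21, 9.26 and 9.26.

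Differences between the arrays were small for most members and concentrated in a few. A span, the highest minus the lowest array, of 0.5 log2 units or more was found in 3 of 52 members above background (5.77%), against 2.61% of all genes above background. The 3 were Fscn1, Coro1a and Marcksl1. Marcksl1 lay just inside this threshold with 0.53 units and Dock8 just outside with 0.49. Without replicate 3, 0 of the 52 reached it. The median span was 0.0655 units over the members and 0.00963 over all genes above background, but this order depended on level. At a mean of 10 or more, where 30 of the 52 members lie, it was 0.0403 over the members and 0.0653 over all genes. There 0 of 30 members spanned 0.5 units, against 2.57% of genes. Between 8 and 10 the median span was 0.0814 over 19 members and 0.0345 over all genes. In that range 2 of 19 members (10.5%) spanned 0.5 units, against 2.43% of genes. Below 8, 1 of 3 members did, against 2.7%.

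**Figure D2:**
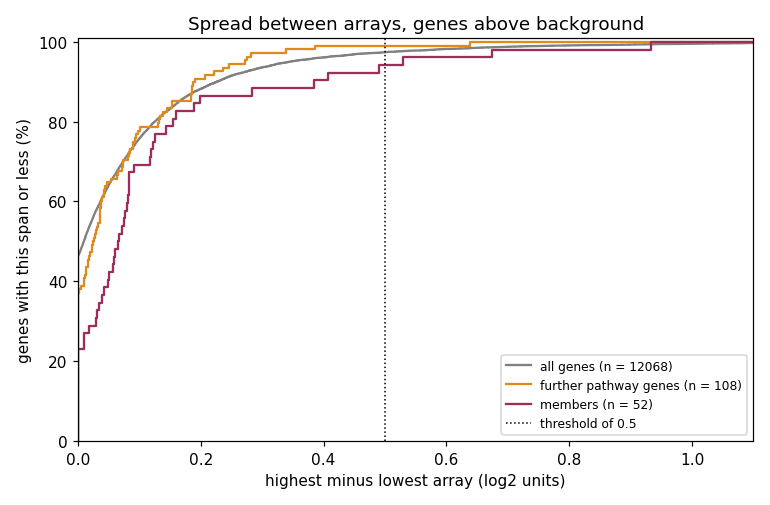
Cumulative share of genes (vertical axis, %) by the difference between their highest and lowest array (horizontal axis, log2 units), for 52 members, 108 further genes of the pathway and all 12068 genes above background. The members' curve starts lowest, since 12 of 52 members were identical in the 3 arrays, and 3 members lie right of the dotted threshold of 0.5.

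Many deposited values were the same to the last digit in all arrays, which median polish over 3 arrays can produce even where the probes differ. This held for 12 of the 52 members (23.1%), against 46.5% of all genes above background. Over all genes such ties became rarer with level, from 55.7% of 7631 genes with a mean below 8 through 33.7% of 3541 between 8 and 10 to 18.6% of 896 at 10 or more. The members did not follow this: 0 of 3, 3 of 19 (15.8%) and 9 of 30 (30%) were identical. Members were thus less often tied than all genes below 10 and more often tied above. An identical value is no sign of a precise measurement. Of the other 40 members, 10 were equal in replicates 1 and 2 only and 6 in replicates 2 and 3 only. Gsn alone was equal in replicates 1 and 3 only, and 23 had 3 different values. Over all 6456 genes above background and not identical, the same counts were 1992, 995, 443 and 3026.

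Replicate 3 was the array in which members were most often lowest. Of the 40 members that were above background and not identical, 24 (60%) were lowest there, against 37.8% of all such genes, and 9 (22.5%) were highest there, against 36.2%. By level, 15 of 21 members (71.4%) and 45.4% of 729 genes with a mean of 10 or more were lowest in replicate 3. Between 8 and 10 the shares were close, 6 of 16 members (37.5%) and 36.6% of 2349 genes, and below 8 there were 3 members, all lowest in replicate 3. Spans, taken over all 3 arrays, were wider among the members lowest there than among those highest there. Of the 24 members, 14 spanned more than 0.1 log2 units and 6 more than 0.3. Of the 9, 2 spanned more than 0.1 and none more than 0.3, with Rhoh the widest at 0.13. The same counts over all genes were not computed, so this is not shown to be particular to the members. Averaged over the 52 members, replicates 1, 2 and 3 lay off the mean of the 3 arrays by 0.03, 0.02 and -0.05 log2 units, against 0.0077, 0.0019 and -0.0096 over all genes above background.

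**Figure D3:**
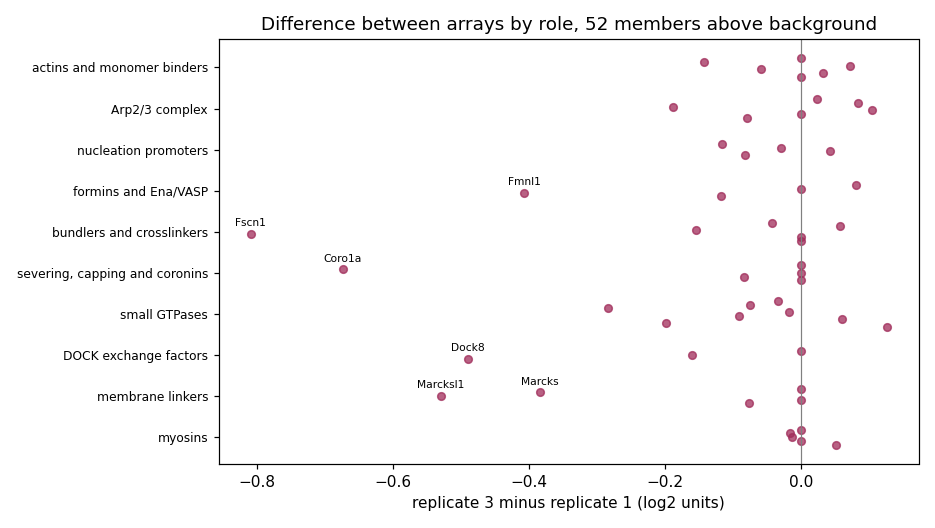
Replicate 3 minus replicate 1 (horizontal axis, log2 units) for each of the 52 members above background, 1 point a gene, by role. Most points lie within 0.2 units of 0, and the 6 named genes, from 5 role groups, all lie to the left, Fscn1 at -0.81.

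The 6 members that spanned more than 0.3 units, Fscn1, Coro1a, Marcksl1, Dock8, Fmnl1 and Marcks, were each lowest in replicate 3. Replicates 1 and 2 differed by 0.02 log2 units for Coro1a and Marcksl1, by 0.05 for Fmnl1, by 0.12 for Fscn1, by 0.15 for Dock8 and by 0.17 for Marcks. Fscn1 was highest in replicate 2, the other 5 in replicate 1. In some families the form of blood cells had a wider span than its broadly expressed relatives, as Coro1a beside Coro1b and Coro1c, and Rac2 beside Rac1. This was not so throughout: Lcp1, Myo1g, Capg and Evl, also prominent in blood cells, were identical in the arrays.

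Markers of other cell types, and cell cycle genes, also moved between the same arrays. The mean level of 10 measured T cell markers was 7.59, 7.30 and 6.87 in replicates 1, 2 and 3, with 9 of the 10 above background throughout and Cd2 in 1 array. For 9 NK markers it was 7.53, 7.35 and 6.88, with 6 of the 9 above background and Ncr1 (4.23), Klrd1 (4.89) and Klre1 (3.39) below it. For 15 cell cycle genes, all above background, it was 7.83, 7.57 and 7.04. Mast cell and basophil markers (3 of 8 above background) had means of 6.12, 6.22 and 5.23, neutrophil markers (4 of 10) 5.96, 5.86 and 5.28, and platelet markers (7 of 7) 7.62, 7.48 and 7.17. These means take in every measured marker. Over the markers above background alone each list was also lowest in replicate 3, as were the 6 members, but the neutrophil list hardly moved (5.74, 5.80 and 5.66). Of the platelet markers only Pf4, Ppbp and Vwf moved. Itga2b, Gp9 and Gp5 were identical in the arrays, and Clec1b spanned 0.01 units. Of the 9 T cell markers above background, 8 were lowest in replicate 3. Cd247 among them spanned 0.05 units, and Lat was identical in the arrays. Macrophage markers (8 of 8) had 10.69, 10.59 and 10.48. Stromal markers (6 of 13) had 6.96, 6.03 and 5.97 and so were highest in replicate 1. Dcn, Sparc, Lox and Bgn had the widest spans of that list (Lox 7.58, 4.47 and 4.63), and none was above background in every array. Col3a1 and Col5a1 were identical in the arrays. B cell (2 of 6) and erythroid markers (2 of 4) moved by less than 0.1 units. The part of such cells in the members' values was not tested.

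Fascin is usually counted among genes of dendritic cell maturation. Of 9 such genes measured, 6 were lowest in replicate 3, as Fscn1 was, against 37.8% of all genes above background and not identical. The other 3, Ccl22, Cd40 and Cd200, were lowest in replicate 1, and Cd200 alone was highest in replicate 3. The mean level over the 9 measured genes was 9.33, 9.45 and 9.27. Ccr7, the receptor that leads mature dendritic cells to lymph nodes, had 10.15, 10.50 and 9.74, the same order of arrays as Fscn1. That order was found in 5 of the 9, Cd83, Ccl17 (12.15, 12.25 and 11.93), Socs2 and Traf1 being the others. The order was taken from Fscn1 itself, and the share of all genes with it was not computed. Genes highest in replicate 2, which include those with this order, were 650 of the 6456 above background and not identical. Cd200 ran the other way, with 8.55, 8.80 and 9.18. The part of maturation in the value of Fscn1 was not tested. The 10 BMDC markers had a mean of 10.26, 10.28 and 10.27.

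**Figure D4:**
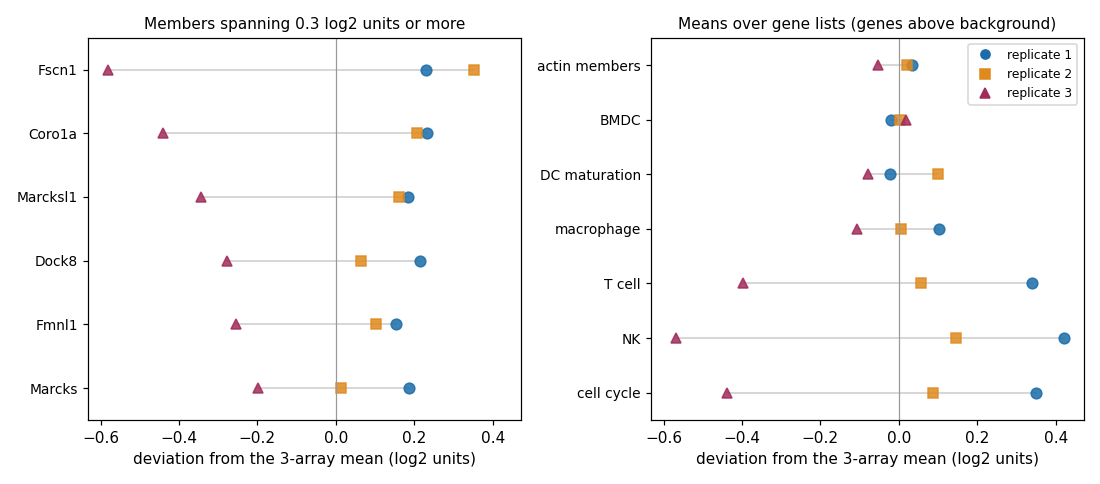
Each array minus the mean of the 3 arrays (horizontal axis, log2 units) for the 6 members spanning more than 0.3 units (left) and averaged over the genes above background among the members and 6 marker lists, BMDC, maturation, macrophage, T cell, NK and cell cycle (right); circles, squares and triangles are replicates 1, 2 and 3. Triangles lie left of the other symbols for all 6 genes and for every list shown but BMDC.

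Promoter sequences are shown for the 3 members with the widest spans and for 2 actin-pathway genes that hold a CArG box, the element bound by serum response factor (SRF). SRF and its actin-binding coactivators raise cytoskeletal genes when free actin monomers run low. The windows run from 250 bases before to 50 after a RefSeq gene start (GRCm38.p6) and are written 5′ to 3′ on the gene's strand. The windows of a chromosome were dropped before counting, so every share of windows given below leaves it out. The windows kept included 63 of 51 members and none of Actb, Rac1, Rac2, Coro1b, Diap1 or Marcks. Whether the dropped windows held any of these genes was not tested. Capitals mark, on either strand, a CArG box, a kappaB site, GAGGAA (PU box), GGGCGG (GC box), TATAAA, TGACGTCA (cAMP response element), TGACTCA or TGAGTCA (AP-1) and CCAAT. A CArG box can itself contain TATAAA or CCAAT.
Fscn1 (chr5:142960105-142960404, plus strand): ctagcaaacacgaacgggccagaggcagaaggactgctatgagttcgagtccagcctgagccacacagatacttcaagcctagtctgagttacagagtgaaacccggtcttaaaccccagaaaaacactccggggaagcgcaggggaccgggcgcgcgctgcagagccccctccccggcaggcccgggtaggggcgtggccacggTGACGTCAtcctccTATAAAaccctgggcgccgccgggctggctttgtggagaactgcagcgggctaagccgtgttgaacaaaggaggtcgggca
Coro1a (chr7:126704767-126705066, minus strand, the more upstream of its 2 windows): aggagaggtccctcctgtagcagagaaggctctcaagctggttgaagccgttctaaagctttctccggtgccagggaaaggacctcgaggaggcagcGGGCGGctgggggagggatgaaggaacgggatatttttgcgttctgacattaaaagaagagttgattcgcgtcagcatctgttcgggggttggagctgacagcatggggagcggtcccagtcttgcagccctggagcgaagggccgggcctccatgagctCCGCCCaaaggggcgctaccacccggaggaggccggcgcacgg
Marcksl1 (chr4:129513331-129513630, plus strand): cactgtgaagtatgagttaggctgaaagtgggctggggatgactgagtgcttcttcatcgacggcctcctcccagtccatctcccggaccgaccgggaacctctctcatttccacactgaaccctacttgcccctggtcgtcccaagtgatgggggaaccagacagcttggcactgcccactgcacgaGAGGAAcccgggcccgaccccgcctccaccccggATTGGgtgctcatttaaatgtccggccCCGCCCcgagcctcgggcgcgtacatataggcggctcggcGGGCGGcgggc
Actg1 (chr11:120348446-120348745, minus strand): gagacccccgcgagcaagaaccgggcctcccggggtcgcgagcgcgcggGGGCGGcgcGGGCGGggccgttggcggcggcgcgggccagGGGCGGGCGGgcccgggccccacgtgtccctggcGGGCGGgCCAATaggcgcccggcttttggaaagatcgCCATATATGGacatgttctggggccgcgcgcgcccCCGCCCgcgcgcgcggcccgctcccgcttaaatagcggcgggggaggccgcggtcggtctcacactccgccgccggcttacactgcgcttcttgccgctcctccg
Myo1e (chr9:70207100-70207399, plus strand): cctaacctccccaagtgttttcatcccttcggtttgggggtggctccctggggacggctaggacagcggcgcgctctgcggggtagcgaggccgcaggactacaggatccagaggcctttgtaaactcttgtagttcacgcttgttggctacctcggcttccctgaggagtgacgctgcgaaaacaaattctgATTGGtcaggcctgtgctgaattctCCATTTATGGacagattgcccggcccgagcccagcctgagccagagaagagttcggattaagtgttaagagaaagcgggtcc

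The 3 promoters of the widest spans had no motif of the set in common. Fscn1 held TATAAA 31 bases and TGACGTCA 45 bases before its start and no GC box. Coro1a held GC boxes alone, and Marcksl1 held GC boxes, GAGGAA and CCAAT. The CArG box was found in 3 of 63 member windows (4.76%), those of Actg1, Myo1e and Arpc4, against 1.63% of all 32851 windows and 1.31% of those of genes above background. It began 90 bases before the start in Actg1, 32 in Myo1e and 250, at the window's edge, in Arpc4. Myo1e spanned 0.07 log2 units and Arpc4 was identical in the arrays, and neither is among the members with wide spans. GGGCGG was in 71.4% of member windows, 60.8% of the windows of genes above background and 35.7% of all windows, whose median GC content was 63.0%, 60.7% and 52.7%. TATAAA was in 5 member windows (7.94%), against 7.2% of the windows of genes above background and 13.6% of all. TGACGTCA was in 2 (3.17%), against 2.95% and 1.79%, so that for both the members were near the genes above background. The kappaB site was in 4 (6.35%), against 5.33% and 4.51%, and AP-1 in 1 (1.59%), against 3.91% and 5.20%. GAGGAA and CCAAT were each in 17 (27.0%), against 26.9% and 36.7% of the windows of genes above background and 28.3% and 37.4% of all. A match is letters in a window and no bound site.

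Further genes of the pathway, 124 measured from lists of related function, were above background in 108 cases (87.1%, against 60.5% of all genes). Of these 108, 40 were identical in the arrays (37.0%, against 46.5% of all genes above background). Of the other 68, 33 were lowest in replicate 3 (48.5%, against 37.8%) and 21 highest there (30.9%, against 36.2%). A single gene of the 108 spanned 0.5 units or more (0.926%, against 2.61%). This was Rhov, a gene of an atypical small GTPase, with 5.93, 6.19 and 6.57, highest in replicate 3. Nckap1, a WAVE complex subunit, had 7.51 in each array, and 17 of 18 genes of further nucleation factors were above background. So were 11 of 14 capping and recycling genes, where Capza1 of the capping protein had 11.41, 11.41 and 11.51. Further formins were above background in 7 of 9 cases, with Diaph2 at 8.78 in each array.

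Among regulators of small GTPases, 23 of 24 exchange factors, GAPs and GDIs were above background, with Vav1, the exchange factor of blood cells, at 8.44 in each array. Of 10 kinases and phosphatases 8 were, with Rock1, a kinase that promotes contraction, at 8.62, 8.60 and 8.62. Further myosins and light chains passed in 14 of 16 cases, with the light chain gene Myl6 at 11.72, 11.71 and 11.43. Tropomyosins, filamins and adhesion adaptors passed in 15 of 19, with Tpm1 at 8.22, 8.22 and 8.23. Those that did not, chosen after their values were seen, were Tpm2 (5.35), Tln2 (5.53, just under the limit), Fermt2 (5.18, 4.65 and 4.93) and Pls1 (5.03), whose relatives Tpm3 and Tpm4, Tln1, Fermt3 and the member Lcp1 were above background. Srf had 8.17, 8.17 and 8.09, and its coactivator genes Mrtfa (8.82, 8.82 and 8.69) and Mrtfb (9.55, 9.48 and 9.46) were above background too. All 3 were lowest in replicate 3, within 0.14 units.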

How the data were processed

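The deposited log2 values are the authors' RMA output (submitters' processing notes). As a method RMA corrects background, quantile normalizes the arrays and summarizes each probe set by median polish. The RMA software is not given in the sources used here, nor is a build. No scanner intensities were used. The 3 arrays had medians of 5.91, 5.91 and 5.91, and the values were not centred. The table holds 35556 probe sets. The platform annotation pairs 21789 with 1 gene and 1621 with more than 1, and 12146 were left unnamed.

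From these values the background call, the span and the array with the lowest value were computed in Python 3.11.15 with pandas 2.3.3, and the counting was tested on simulated data. With 1 group no statistical test was run. The number of arrays limits the precision. Members and lists were chosen with earlier results of these data known. Values in all arrays are given for members spanning 0.5 or more, below background or first in their role list. They are also given for other members by no fixed rule, among them some that show a contrast within a family. Further pathway genes are named where they span 0.5 or more or come first in their list, others after their values were seen. Alternatives covered the limit, the probe set, scaling, thresholds and each replicate left out. The count for 1 list of pathway genes is not reported here.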

Additional observations from a re-analysis of the deposited data

How the results depend on the processing

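The count of 52 members above background stayed between 51 and 52 under every alternative, and Wasf1 and Enah lay below each limit tried. A limit was also set at the highest of the 27 genes of muscle, hair cells, epithelium and nerve (6.82 in each array). With it Marcksl1 was lost, and 90 of the 108 further pathway genes were left, against 96 at the 99th percentile. The count of members spanning 0.5 log2 units, 3, was 6 with a threshold of 0.3 and 0 with a threshold of 1. Leaving out 1 replicate gave 0 to 3, with 0 without replicate 3. With the dimmer probe set of each gene it was 4, Myh9 being added. Identical members numbered 12, and 13 to 22 when 1 replicate was left out, with 22 without replicate 3. Members lowest in replicate 3 numbered 20 to 25, and 29 with ties counted, a setting chosen after seeing the data. The mean deviation of all members above background in replicate 3, -0.05, ranged from -0.06 to -0.04. Small differences between arrays cannot be read from values tied by the summarization.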
